A study of Mus musculus with 3 samples.

Results

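Janus kinases (JAKs) are tyrosine kinases bound to the inner part of cytokine receptors, and the signal transducers and activators of transcription (STATs) are the factors they phosphorylate. After a cytokine binds, phosphorylated STATs pair, enter the nucleus and switch on genes. In macrophages this pathway carries the response to interferons, to interleukins of the IL-6 and IL-10 families, to IL-4 and IL-13 and to GM-CSF.

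Of the 32285 genes counted in single bone marrow-derived macrophages (BMDMs), the 9 described here are 6 STAT genes (*Stat2*, *Stat3*, *Stat4*, *Stat5a*, *Stat5b* and *Stat6*) and 3 Janus kinase genes (*Jak1*, *Jak2* and *Tyk2*), taken by their symbols in the deposited feature lists. The BMDMs were grown in medium with L929 cell-conditioned supernatant (LCCM) from bone marrow of female C3H/HeN mice aged 6 to 8 weeks. The labels describe the marrow as pooled, and so does the cell culture section of the study's methods. The single-cell section of those methods instead describes BMDMs of 3 mice that were treated separately. Ctrl cells were untreated, receiving PBS alone, and were collected with the LP4 cells at 4 hours. LP1 and LP4 cells received 1 µg/mL of purified *Borrelia burgdorferi* lipoproteins (*Bb*LP), ligands of TLR2, for 1 hour and 4 hours. Each condition is 1 library in which the cells of 3 wells were mixed and are not told apart in the files, so no condition has a replicate, no test between conditions was possible, and every interval given is a 95% interval for counting error alone.

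After selection for quality, 6071 Ctrl, 5065 LP1 and 4670 LP4 cells remained, with 35688939, 52475723 and 61402275 unique molecular identifiers (UMIs, each a counted transcript) and a median of 5133, 9343 and 11784 UMIs per cell. All 12 macrophage markers looked up were above 5 UMIs per 1000000 (CPM) in every library and together made 12032 to 12548 CPM, while 11 T and NK cell markers together made 0.838 to 1.42 CPM and 6 or 7 of them, *Cd3e* among them, had 0 UMIs. The share of cells in clusters named macrophage-like by their markers was 97.7%, 97.8% and 96.4%. Among the selected cells, LP1 and Ctrl shared 9 barcode sequences, LP4 and Ctrl 7, and LP4 and LP1 3. Below, a level is a gene's UMIs per 1000000 UMIs of all selected cells of a library (CPM), and a log2 ratio compares the levels of 1 gene in 2 libraries. Where 3 values follow each other without labels, they belong to Ctrl, LP1 and LP4, in this order. UMIs were counted at the 3′ end of transcripts, and capture differs between genes, so levels of different genes are not ranked against each other.

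At 4 hours, 5 of the 9 genes were at least 2 times as high in LP4 as in Ctrl (*Stat2*, *Stat5a*, *Jak2*, *Stat3* and *Stat5b*), and none was at least 2 times lower. The same call was met upward by 9.58% and downward by 10.2% of the 9057 genes with a mean of at least 5 CPM. *Tyk2* lay just under the limit, *Jak1* was slightly higher, *Stat6* was lower, and *Stat4* was too rare to count. At 1 hour, 0 of the 9 passed the limit in either direction, beside 0.729% of genes upward and 0.475% downward. The median log2 ratio of the 9 genes was 0.07 in LP1 and 1.22 in LP4, beside -0.02 and -0.09 for all 9057 genes. Between the 2 treated libraries, the same 5 genes were at least 2 times higher in LP4 than in LP1, beside 7.8% of genes upward and 8.09% downward.

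**Figure D1:**
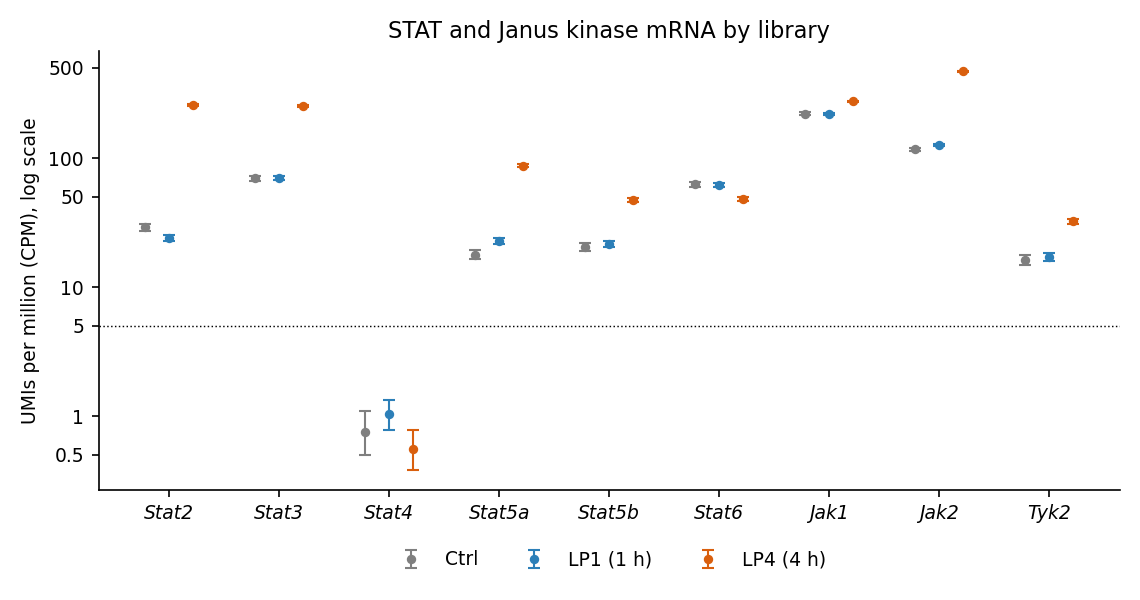
Level of each STAT and Janus kinase gene in CPM (log scale) in Ctrl, LP1 and LP4, 1 library each; bars are exact Poisson 95% intervals, hidden by the point where narrower, and the dotted line is the minimum of 5 CPM. Ctrl and LP1 lie within 2-fold of each other for every gene, and their intervals do not overlap for *Stat2*, *Stat5a* and *Jak2*. The share of all genes whose intervals do not overlap was not computed. LP4 lies far above both for *Stat2* (256 against 29.1 CPM in Ctrl) and *Jak2* (470 against 117) and below both for *Stat6* (48.1 against 62.7).

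*Stat2* (ENSMUSG00000040033, chr10:128270559-128292849, plus strand) encodes the STAT that joins IRF9 in ISGF3, the factor that type I interferon signalling sends to interferon-stimulated response elements (ISREs). It had 29.1 CPM in Ctrl (27.3 to 30.9), 24.0 in LP1 (22.7 to 25.4) and 256 in LP4 (252 to 260), from 1037, 1262 and 15719 UMIs. LP4 was thus the highest, and LP1 lay below Ctrl with intervals that did not overlap. The log2 ratio to Ctrl was -0.27 in LP1 (-0.39 to -0.15) and 3.14 in LP4 (3.05 to 3.23), an 8.81-fold difference. Over the 9 other cell filters and scalings tried, the LP1 ratio ran from -0.28 to -0.20 and the LP4 ratio from 3.11 to 3.35. Of the 9057 genes, 16.8% had a lower LP1 to Ctrl ratio than *Stat2*, and 0.883% had a higher LP4 to Ctrl ratio. A *Stat2* UMI was found in 13.8%, 18.5% and 90.0% of the cells. With every cell thinned to 2000 UMIs, and 122, 13 and 45 shallower cells left out, these shares were 5.38% (4.82 to 5.98), 5.13% (4.53 to 5.77) and 39.2% (37.7 to 40.6). The excess of LP1 over Ctrl in the unthinned share was thus not present at equal depth, while that of LP4 was.

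The stretch before the start of *Stat2* carries the letters of an ISRE core. Among the 250 bases upstream of each RefSeq start (GRCm38.p6, the C57BL/6J reference, not C3H/HeN), an ISRE core was searched for as GAAANNGAAA or its reverse complement TTTCNNTTTC, and a STAT homodimer element (GAS) as TTCNNNGAA, which reads alike on both strands. *Stat2* held 1 ISRE, TTTCAGTTTC, 222 to 213 bases before the start. Such an ISRE stood in 2.97% of 32817 upstream windows of all genes, and upstream of 3.45% of 26994 genes. The sequences of *Stat2*, *Stat3* and *Jak2*, 3 of the 5 genes called at 4 hours, are printed 5′ to 3′ on the strand of the gene to show that 1 of them holds these letters and the others do not. Capitals mark the ISRE.
*Stat2*, chr10:128270248-128270497, plus strand: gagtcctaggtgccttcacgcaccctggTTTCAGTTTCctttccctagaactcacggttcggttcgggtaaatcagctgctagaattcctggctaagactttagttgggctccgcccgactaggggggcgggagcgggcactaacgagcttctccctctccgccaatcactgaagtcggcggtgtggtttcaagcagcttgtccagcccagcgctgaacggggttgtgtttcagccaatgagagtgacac
*Stat3*, chr11:100939541-100939790, minus strand: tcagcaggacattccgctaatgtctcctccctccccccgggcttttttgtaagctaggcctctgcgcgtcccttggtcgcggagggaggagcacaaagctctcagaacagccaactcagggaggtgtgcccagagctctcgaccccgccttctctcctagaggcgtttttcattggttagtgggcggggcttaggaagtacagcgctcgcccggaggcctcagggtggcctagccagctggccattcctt
*Jak2*, chr19:29251553-29251802, plus strand: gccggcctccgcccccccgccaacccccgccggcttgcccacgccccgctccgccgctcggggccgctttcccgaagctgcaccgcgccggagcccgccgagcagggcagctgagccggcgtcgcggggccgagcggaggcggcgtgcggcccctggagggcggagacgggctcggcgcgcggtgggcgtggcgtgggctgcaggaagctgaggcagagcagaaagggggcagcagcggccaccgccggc
The 9 genes had 12 such windows. The only other ISRE was GAAAGTGAAA, 97 to 88 bases before a second start of *Stat4* that lies 21092 bases inside the gene. No window of the 9 genes held the GAS letters, which stood in 7.01% of upstream windows of all genes. *Stat2* starts 61 bases before its GENCODE start in RefSeq. G and C made 56.8% of the *Stat2*, 60.8% of the *Stat3* and 80.8% of the *Jak2* sequence. A match describes letters and not binding, and regions outside these windows were not searched.

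*Stat3* (ENSMUSG00000004040, chr11:100885098-100939540, minus strand) encodes the STAT of the IL-6 and IL-10 receptors. Its level was 69.5 CPM in Ctrl (66.8 to 72.3), 69.6 in LP1 (67.4 to 71.9) and 252 in LP4 (248 to 256). Ctrl and LP1 could not be told apart, and LP4 stood clear of both. The log2 ratio of LP4 to Ctrl was 1.86 (1.80 to 1.92), and that of LP1 to Ctrl 0.00 (-0.07 to 0.08). The thinned shares of cells with a UMI were 13.3%, 13.7% and 41.2%. *Stat2* and *Stat3* reached nearly the same number of UMIs in LP4, 15719 and 15497, from unequal numbers in Ctrl. For each *Stat3* UMI there were 0.418 *Stat2* UMIs in Ctrl (0.389 to 0.450), 0.345 in LP1 (0.324 to 0.368) and 1.01 in LP4 (0.992 to 1.04).

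*Stat5a* (ENSMUSG00000004043, chr11:100859351-100885169, plus strand) and *Stat5b* (ENSMUSG00000020919, chr11:100780731-100850724, minus strand) encode close relatives that act downstream of GM-CSF and of the receptors with the common gamma chain. *Stat5a* had 17.8 CPM in Ctrl (16.5 to 19.3), 22.8 in LP1 (21.5 to 24.1) and 87.5 in LP4 (85.2 to 89.9). It had the largest LP1 to Ctrl ratio of the 8 members above 5 CPM, and the 3 intervals did not overlap. Its log2 ratio to Ctrl was 0.35 in LP1 (0.21 to 0.50) and 2.30 in LP4 (2.18 to 2.42). A higher LP1 to Ctrl ratio was found for 10.7% of the 9057 genes. *Stat5b* had 20.5 CPM in Ctrl (19.0 to 22.0), 21.5 in LP1 (20.3 to 22.8) and 47.6 in LP4 (45.9 to 49.4). Ctrl and LP1 overlapped for *Stat5b*, and its log2 ratio of LP4 to Ctrl was 1.22 (1.10 to 1.34). The balance between the 2 genes therefore moved. There were 0.870 *Stat5a* UMIs per *Stat5b* UMI in Ctrl (0.781 to 0.969), 1.06 in LP1 (0.975 to 1.15) and 1.84 in LP4 (1.76 to 1.92). How reads that match both genes were treated is not given either in the sources used here. The ends of *Stat5a* and *Stat3* overlap by 72 bases on opposite strands, and how strand was used in counting is not given in the sources used here.

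*Stat6* (ENSMUSG00000002147, chr10:127642986-127660957, plus strand) encodes the STAT of the IL-4 and IL-13 receptors. It was the 1 member above 5 CPM that was lower at 4 hours, with 62.7 CPM in Ctrl (60.1 to 65.4), 61.6 in LP1 (59.5 to 63.8) and 48.1 in LP4 (46.4 to 49.9). Ctrl and LP1 overlapped and LP4 lay below both. The log2 ratio of LP4 to Ctrl was -0.38 (-0.46 to -0.30), which does not reach the limit of 2-fold, and 33.8% of the 9057 genes had a lower one. In every scaling tried the ratio stayed below 0, from -0.41 to -0.17. Being lower in LP4 than in Ctrl was shared by 55.0% of the 9057 genes. The thinned shares of cells with a *Stat6* UMI were 11.6%, 10.8% and 9.17%.

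*Stat4* (ENSMUSG00000062939, chr1:51987148-52107189, plus strand) encodes the STAT of the IL-12 receptor, best known from T and NK cells. It had 27, 54 and 34 UMIs, or 0.757 CPM (0.499 to 1.10), 1.03 (0.773 to 1.34) and 0.554 (0.383 to 0.774), and was the 1 member under the minimum of 5 CPM. The interval of the log2 ratio of LP4 to Ctrl ran from -1.22 to 0.33, so no difference was detectable at this depth. The 115 UMIs lay in 81 cells, with up to 11 in 1 cell. Of them 27 UMIs came from 7 cells of the 261 dendritic cell-like cells and 12 from 10 of the 85 neutrophil-like cells, where the level was 10.2 CPM (6.72 to 14.8) and 24.7 CPM (12.8 to 43.2). In the macrophage-like clusters A to G it was 0.219 to 1.09 CPM, and in the macrophage-like cluster K, of 57 cells, 5.17 CPM (1.07 to 15.1) from 3 UMIs in 1 cell. Of the 81 cells, 1 also had a UMI of a T or NK cell marker.

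*Jak2* (ENSMUSG00000024789, chr19:29251828-29313080, plus strand) encodes the kinase of the GM-CSF, IFN-γ and IL-12 receptors. Its level was 117 CPM in Ctrl (113 to 120), 126 in LP1 (123 to 130) and 470 in LP4 (464 to 475). The 3 intervals did not overlap. The log2 ratios to Ctrl were 0.11 in LP1 (0.06 to 0.17) and 2.01 in LP4 (1.96 to 2.05). A higher ratio was found for 30.7% of the 9057 genes in LP1 and for 2.63% in LP4. A *Jak2* UMI was seen in 18.8%, 21.0% and 58.2% of cells thinned to 2000 UMIs. Relative to the mean, the variance of its counts was larger than for the other members above 5 CPM. At 2000 UMIs per cell the variance of the *Jak2* count was 1.29, 1.29 and 1.39 times its mean in Ctrl, LP1 and LP4, against 0.992 to 1.11 for the other 7. This measure can grow with the mean, which was 0.232, 0.261 and 1.01 UMIs for *Jak2* and 0.0578, 0.0558 and 0.503 for *Stat2*. It therefore does not rank the members by how unequal the cells were. A Poisson count with the same mean would have given 63.7% of LP4 cells a *Jak2* UMI, not 58.2%.

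*Jak1* (ENSMUSG00000028530, chr4:101152367-101265282, minus strand), the kinase shared by the interferon, IL-6, IL-10 and gamma chain receptors, had 221 CPM in Ctrl (216 to 226), 218 in LP1 (214 to 222) and 275 in LP4 (271 to 279). Its log2 ratio of LP4 to Ctrl was 0.32 (0.28 to 0.35), higher but well short of 2-fold. *Tyk2* (ENSMUSG00000032175, chr9:21104068-21131243, minus strand), the partner of JAK1 at the type I interferon receptor, had 16.2 CPM in Ctrl (14.9 to 17.6), 17.1 in LP1 (16.0 to 18.2) and 32.4 in LP4 (31.0 to 33.8). Its log2 ratio of LP4 to Ctrl was 0.997 (0.86 to 1.13), with the limit of 1 inside the interval. For both genes Ctrl and LP1 overlapped. *Tyk2* passed the limit in 6 of 9 other cell filters and scalings, at 1.17 with TMM, at 1.20 with median-of-ratios scaling and between 1.003 and 1.03 in the 4 others, and the range over all 9 was 0.91 to 1.20. Where it passed, 6 of the 9 genes were called.

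The make-up of the STAT and JAK transcripts changed at 4 hours. The 6 STAT genes together had 200.3, 200.7 and 692 CPM, and the 3 kinases 354, 362 and 777 CPM. *Stat2* UMIs were 14.5% of the STAT UMIs in Ctrl (13.7 to 15.3), 12.0% in LP1 (11.4 to 12.6) and 37.0% in LP4 (36.5 to 37.4). *Stat6* UMIs went the other way, from 31.3% and 30.7% to 6.95% (6.71 to 7.20). *Stat3* kept a similar share, with 34.7%, 34.7% and 36.5%. Among the kinases, *Jak2* took 33.0%, 34.9% and 60.5% of the UMIs and *Jak1* 62.4%, 60.3% and 35.4%. These shares need no scaling between libraries. Seen per *Stat6* UMI, there were 0.463 *Stat2* UMIs in Ctrl (0.430 to 0.499), 0.390 in LP1 (0.365 to 0.416) and 5.32 in LP4 (5.11 to 5.53).

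**Figure D2:**
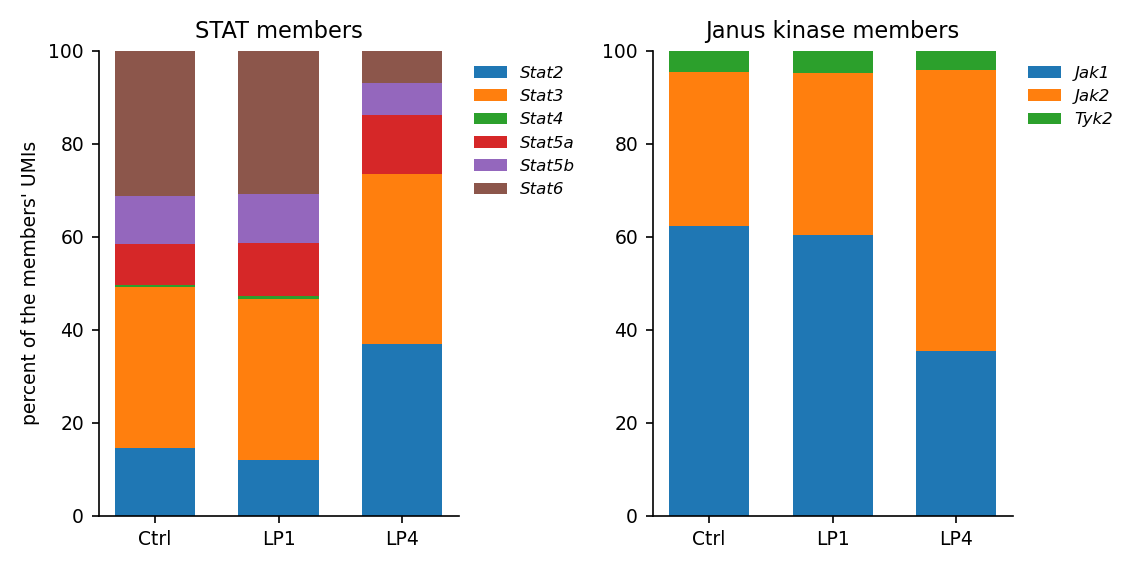
Percent of the UMIs of the 6 STAT members (left) and of the 3 Janus kinase members (right) that each gene took in Ctrl, LP1 and LP4; each bar is 1 library and adds to 100%. *Stat2* grew from 14.5% in Ctrl to 37.0% in LP4 while *Stat6* shrank from 31.3% to 6.95%, and *Jak2* grew from 33.0% to 60.5% of the kinase UMIs.

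At equal depth, single cells showed more of these genes at once. In cells thinned to 2000 UMIs, a mean of 0.951 of the 9 genes was seen per Ctrl cell, 0.975 per LP1 cell and 2.22 per LP4 cell. None was seen in 35.1% of Ctrl (33.9 to 36.3), 34.2% of LP1 (32.9 to 35.5) and 6.88% of LP4 cells (6.16 to 7.64). At least 3 were seen in 5.23%, 5.62% and 39.4%.

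The LP4 pattern was then followed within clusters of cells. Cells were clustered without the 9 genes, the pathway lists below or the interferon score, and a cluster was compared between libraries where each of them gave it 50 cells or more, which left 7 of 12. These were 6 macrophage-like clusters, called A to F, and the dendritic cell-like cluster H, led by *H2-Eb1*, *H2-Ab1*, *H2-Aa* and *Cd74*. The name of H rests on these 4 of 14 dendritic cell markers, the only ones among its leading genes. H also had 6 of 12 macrophage markers in at least 50% of its cells, which alone would have named it macrophage-like. Cluster A was led by *Ccnd1*, B by *Egr3*, C by *Hal*, D by *Fabp4*, E by *Mgll* and F by histone and mitosis genes such as *Hist1h1b* and *Aspm*. *Stat2*, *Stat3*, *Stat5a* and *Jak2* were at least 2 times higher in LP4 than in Ctrl in 7 of 7 clusters. *Stat5b* was higher in 7 and passed the limit in 5, *Tyk2* was higher in 7 and passed it in 3, *Jak1* was higher in 7 and passed it in 0, and *Stat6* was lower in 7 of 7. *Stat5b* and *Tyk2* each passed it in 4 of 5 clusters at a resolution of 0.3 and in 7 of 9 at 0.8. The share of all genes past the limit within a cluster was not computed.

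The size of the *Stat2* ratio varied little, from 2.85 in B (2.61 to 3.10) to 3.43 in C (3.24 to 3.62) on the log2 scale. Cluster B had 1618 Ctrl cells but 122 LP4 cells. At a clustering resolution of 0.3 in place of 0.5, the cluster led by *Egr3* had 1828 Ctrl and 1324 LP4 cells. The 122 cells may thus be only a part of the LP4 cells that match the Ctrl cells of B, which was not tested. *Stat5a* varied more, from 1.75 in A (1.54 to 1.96) to 2.91 in B (2.43 to 3.39), and was 3.24 in the wider *Egr3* cluster. In Ctrl its level was 27.3 CPM in A and 10.9 CPM in B, the highest and the lowest of the 7, and in LP4 the clusters ran from 68.4 CPM in E to 106 CPM in H. *Jak2* ran from 1.66 in F (1.52 to 1.82) to 2.20 in D (2.05 to 2.36). Its level was lowest in E and highest in H in each of the 3 libraries, 77.7 and 183 CPM in Ctrl, 102 and 196 in LP1 and 325 and 596 in LP4. *Stat3* in Ctrl was 46.4 CPM in the dividing cluster F and 108 CPM in B.

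**Figure D3:**
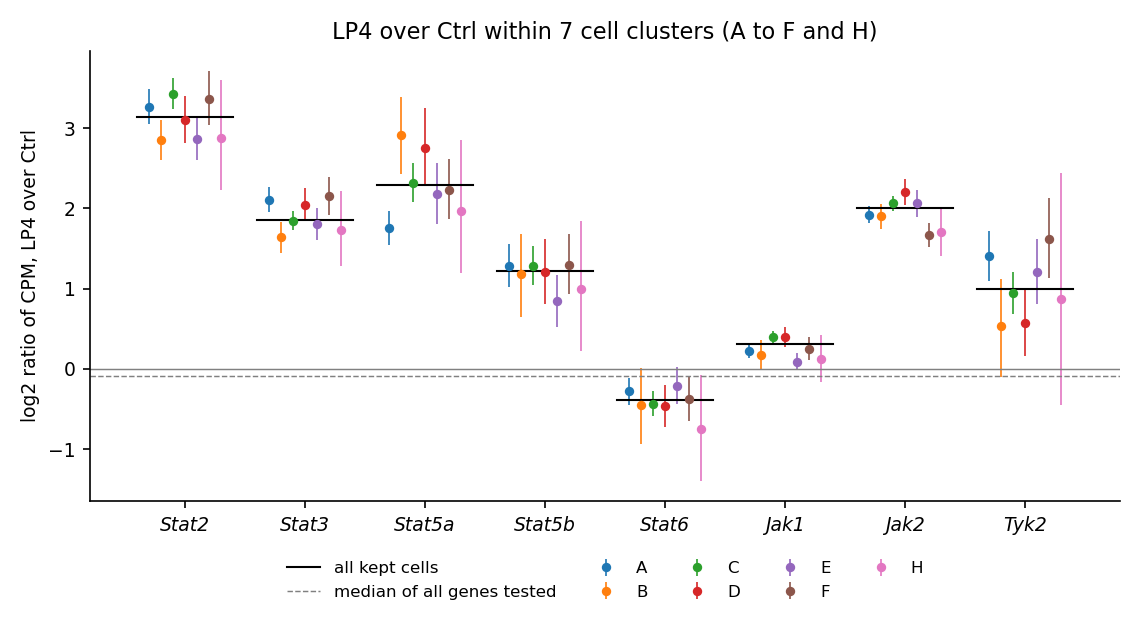
Log2 ratio of CPM in LP4 over Ctrl for 8 members (all but *Stat4*) within 7 cell clusters, with exact 95% counting intervals; black lines are the ratio over all selected cells and the dashed line is the median of all genes tested, -0.09. Every cluster lies above 1 for *Stat2*, *Stat3*, *Stat5a* and *Jak2*, and every cluster lies below 0 for *Stat6*.

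Cluster G, led by *Gbp4*, took 931 of its 1025 cells from LP4 and was not compared. In LP4 it had 301 CPM of *Stat2* (290 to 313), 343 of *Stat3* (331 to 356) and 609 of *Jak2* (593 to 626). No cell class here is known to lack these genes, so none gives a level of background from free RNA. The class of 85 neutrophil-like cells was led by *Mpo*, *Ms4a3* and *Elane*. Its name rests on 4 of 13 neutrophil markers, *Mpo*, *Elane*, *S100a9* and *Ngp*, the only ones among its leading genes. *Ms4a3* is not one of the 13, and how mature these cells were was not tested. The 85 cells had less *Stat2* at 4 hours than any compared cluster, the lowest of which was F with 216 CPM. Their *Stat2* was 38.2 CPM in Ctrl (10.4 to 97.9, 4 UMIs), 21.3 in LP1 (4.39 to 62.2, 3 UMIs) and 58.4 in LP4 (31.9 to 98.0, 14 UMIs). Their *Stat3* was 143, 142 and 117 CPM with overlapping intervals, and their *Jak2* 66.9, 85.2 and 184 CPM. Thinned to 2000 UMIs, 1 of 28 neutrophil-like LP4 cells had a *Stat2* UMI (3.57%, exact binomial interval 0.0904 to 18.3), beside 39.3% of macrophage-like (37.9 to 40.7) and 47.2% of dendritic cell-like LP4 cells (36.5 to 58.1). The median depth before thinning was 9262, 11858 and 12415 UMIs. A *Jak2* UMI was seen in 14 of the 28 neutrophil-like cells, in 58.2% of the macrophage-like and in 60.7% of the dendritic cell-like cells.

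Cells were also ranked within each library by an interferon score, the share of a cell's UMIs in 16 interferon-stimulated genes (none of the 9), and cut into 5 equal bins. *Stat2* went up with this score in all 3 libraries. From the lowest to the highest bin it went from 13.5 CPM (10.8 to 16.8) to 69.4 CPM (63.2 to 76.2) in Ctrl, from 9.81 (7.95 to 12.0) to 61.1 (56.3 to 66.2) in LP1 and from 202 (193 to 210) to 313 (302 to 324) in LP4, and each of the 4 steps was upward. The log2 ratio of the highest over the lowest bin was 2.36 in Ctrl (2.02 to 2.72), 2.64 in LP1 (2.33 to 2.96) and 0.63 in LP4 (0.56 to 0.71). With every cell thinned to 2000 UMIs before scoring, these ratios were 1.86 (1.37 to 2.37), 1.91 (1.36 to 2.49) and 0.68 (0.48 to 0.87), and 3 of the 4 steps were upward in each library. The 2 lowest thinned bins of Ctrl and of LP1 held no UMI of the score genes, so their cells were not ranked by it. The step between these 2 bins therefore does not follow the score. Without thinning, no cell of the lowest Ctrl bin had a score UMI, nor did 246 of 1214 cells of the next Ctrl bin. In the lowest LP1 bin, 901 of 1013 cells had none. Untreated cells thus already differed in *Stat2*, and even the highest Ctrl bin stayed under the lowest LP4 bin. The Ctrl bins held 0 to 0.298% of their UMIs in the score genes and the LP4 bins 0.379 to 2.55%. Median depth per cell was close in the 2 end bins, 4463 and 4526 UMIs in Ctrl, 8761 and 8583 in LP1 and 10753 and 10566 in LP4.

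*Jak2* rose over the same bins in 4 of 4 steps in each library, with log2 ratios of 0.39 (0.24 to 0.54), 0.51 (0.40 to 0.63) and 0.59 (0.53 to 0.65) in Ctrl, LP1 and LP4. *Stat3* had 0.09 (-0.10 to 0.28), 0.35 (0.20 to 0.50) and 0.42 (0.34 to 0.50). *Tyk2* had 0.52 (0.10 to 0.94), 0.15 (-0.16 to 0.47) and 0.45 (0.22 to 0.69). *Stat6* was flat in Ctrl and LP1 within its intervals and had -0.24 (-0.42 to -0.06) in LP4. *Stat5a*, *Stat5b* and *Jak1* had intervals that included 0 in every library. So *Stat2* and *Jak2* alone of the 9 had intervals above 0 in all 3. Members with fewer UMIs, such as *Tyk2*, have wider intervals. The share of all genes with such intervals was not computed. In the thinned cells, with fewer UMIs, *Jak2* had 0.31 (0.05 to 0.56), 0.41 (0.16 to 0.66) and 0.60 (0.47 to 0.74), with 3 upward steps in Ctrl and 4 in LP1 and LP4. As for *Stat2*, the lowest step in thinned Ctrl and LP1 cells lay between bins not ranked by the score. There the intervals of *Stat3* in LP1, of *Tyk2* in every library and of *Stat6* in LP4 included 0.

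**Figure D4:**
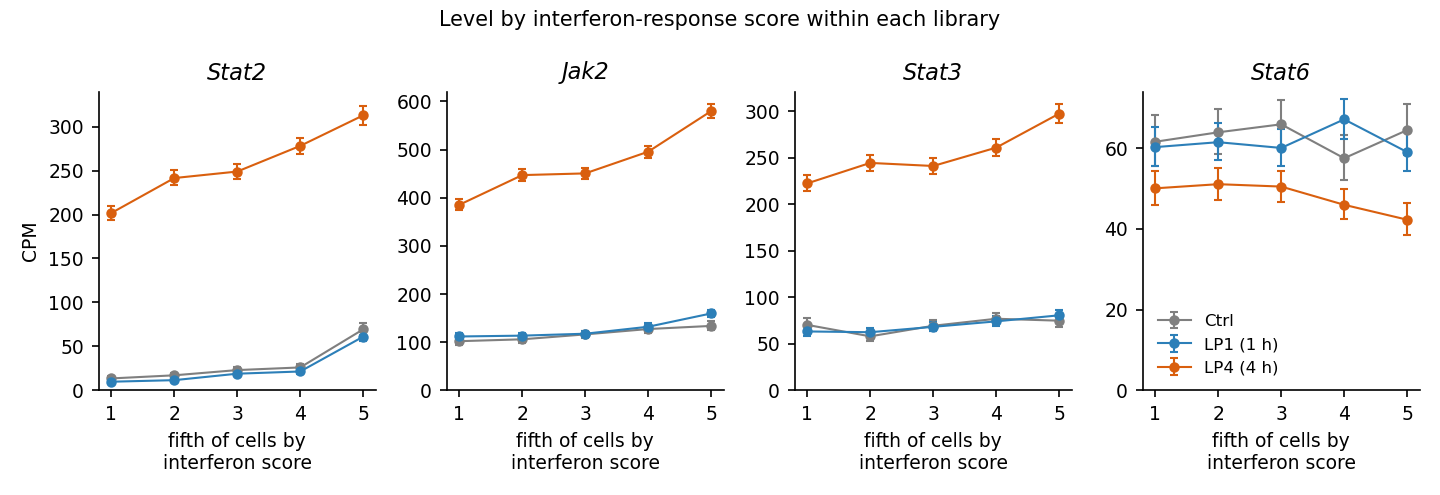
Level (CPM, linear axes from 0) of *Stat2*, *Jak2*, *Stat3* and *Stat6* in 5 equal bins of cells ranked within each library by the share of UMIs in 16 interferon-stimulated genes; bars are exact Poisson 95% intervals. *Stat2* climbs from 13.5 to 69.4 CPM in Ctrl and from 202 to 313 CPM in LP4, and the LP4 lines of *Stat2*, *Jak2* and *Stat3* lie above those of Ctrl and LP1 in every bin.

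Across the 21 cluster and library sums, the genes whose levels followed a member most closely were found by Pearson's r of log2(CPM + 5) among 5618 genes with a mean of at least 20 CPM, other STAT and Janus kinase genes left out. The points share libraries, and differences between libraries enter each r, so r after centring each library is given too. For *Stat2* they were *Zup1* (r = 0.995, 0.867 centred), *Herc6* (0.994, 0.803) and *Irgm1* (0.993, 0.781). *Zup1* encodes a ubiquitin peptidase, and *Herc6* and *Irgm1* are interferon-induced genes. For *Stat3* they were *Ifi204* (0.990, 0.936), *Aff1* (0.989, 0.924) and *Ifi202b* (0.987, 0.913), and for *Jak2* *Plagl2* (0.986, 0.878), *Trim30d* (0.984, 0.901) and *Ppp2r5a* (0.980, 0.865). For *Stat5a* they were *Tmed5*, *Slc7a11* and *Tasor2* (0.976, 0.974 and 0.974, and 0.756, 0.886 and 0.825 centred), and for *Stat5b* *Slco3a1*, *Gcnt2* and *Zeb1* (0.972, 0.967 and 0.966, and 0.80, 0.825 and 0.856 centred). For *Stat6* they were *Tpst2*, *Ythdf3* and *Setd7* (0.898, 0.895 and 0.886, and 0.651, 0.662 and 0.639 centred). For *Tyk2* they were *Rab31*, *Dram1* and *Wdr44* (0.910, 0.909 and 0.908, and 0.645, 0.665 and 0.768 centred), and for *Jak1* *Ptprc*, *Ric1* and *Cybb* (0.899, 0.870 and 0.866, and 0.890, 0.827 and 0.809 centred). The minimum of 20 CPM is a mean over the 3 libraries. *Irgm1*, *Trim30d*, *Tasor2*, *Gcnt2* and *Zeb1* were under it in Ctrl and LP1 and reached it through LP4 alone. The minimum itself thus let in genes high in LP4, which raises r for members that were higher there. Between members, *Stat2* and *Stat3* had r = 0.964 (0.883 centred) and *Stat2* and *Stat5a* 0.902 (-0.28 centred).

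The rest of the pathway was read from fixed lists, written with results of these data known. Of 21 ligand genes, 8 reached a mean of 5 CPM, of which 4 were at least 2 times higher in LP4 than in Ctrl and none lower, with a median log2 ratio of 0.92. That mean is over the 3 libraries. Of those 4, *Il27*, *Il6* and *Csf3* were under 5 CPM in Ctrl and LP1 and reached it through LP4 alone. *Il27*, encoding the p28 chain of IL-27, went from 3.59 CPM in Ctrl and 3.33 in LP1 to 105 in LP4. *Il6* went from 1.09 and 1.45 to 24.7 CPM, *Il15* from 59.9 and 63.6 to 780 CPM, and *Csf3*, which encodes G-CSF, from 4.54 and 3.56 to 10.3 CPM. *Il10*, whose receptor uses STAT3, was at 100.3, 105 and 141 CPM. *Osm*, which encodes oncostatin M, peaked at 1 hour, with 22.8, 55.2 and 28.5 CPM, and *Il12b* had 19, 139 and 65 UMIs. Of interferon ligands the list held only *Ifnb1* and *Ifng*, both rare, and other interferon genes were not looked up. *Ifnb1* had 2, 10 and 96 UMIs (1.56 CPM in LP4, log2 ratio to Ctrl 4.80, 2.91 to 7.87), and *Ifng* had 0, 1 and 1. *Il4* had 7, 2 and 4 UMIs and *Il13* had 0 in all 3 libraries.

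Of 28 receptor genes, 20 reached the minimum, and at 4 hours 5 were at least 2 times higher and 1 lower than in Ctrl, with a median log2 ratio of 0.28. *Il4ra* had the largest ratio, with 31.6, 28.5 and 647 CPM (log2 ratio 4.36, 4.27 to 4.45), and *Il13ra1*, its partner in the type II IL-4 receptor, had 7.34, 9.20 and 62.8 CPM. So both chains of a receptor that uses STAT6 were higher at 4 hours, while *Stat6* itself was lower. *Il15ra* had 7.43, 9.03 and 89.8 CPM, *Il21r* 8.35, 7.05 and 51.8, and *Csf3r* 35.2, 29.7 and 78.8. The 1 lower receptor was *Il6ra*, with 60.2, 47.8 and 26.8 CPM (log2 ratio -1.17, -1.26 to -1.07), opposite in direction to its ligand *Il6*. The type I interferon receptor genes *Ifnar1* and *Ifnar2* had log2 ratios of 0.55 and 0.43, and the IFN-γ receptor genes moved apart, with -0.62 for *Ifngr1* and 0.83 for *Ifngr2*.

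The largest ratio in the ligand, receptor and inhibitor lists was that of an inhibitor. Of 20, 18 reached the minimum, 6 were at least 2 times higher and 1 lower in LP4 than in Ctrl, and the median was 0.40. *Socs1*, whose product blocks Janus kinases, had 1.68, 3.85 and 90.7 CPM, and the log2 ratio of LP4 to Ctrl was 5.75 (5.39 to 6.15). It was under 5 CPM in Ctrl and LP1 and reached the minimum through LP4 alone. *Socs3*, the inhibitor of the IL-6 receptor chain gp130, had 52.3, 98.9 and 648 CPM, and the log2 ratios of LP1 to Ctrl were 1.20 for *Socs1* and 0.92 for *Socs3*. *Cish*, a STAT5 target that restrains cytokine receptors, had 4.17, 5.35 and 61.1 CPM, and *Usp18*, which blocks the type I interferon receptor, 18.0, 16.4 and 189. *Ptpn1* and *Socs7* had ratios of 1.33 and 1.05. *Ptpn6*, which encodes the phosphatase SHP-1, was the 1 lower inhibitor, with 106, 91.1 and 48.0 CPM (log2 ratio -1.14, -1.21 to -1.07).

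Genes known as targets of the STATs were counted as well. Of 24 genes known as targets of ISGF3, 22 matched a symbol and reached the minimum. At 1 hour 19 of the 22 were lower than in Ctrl, with a median log2 ratio of -0.31, beside -0.27 for *Stat2*, and with TMM or median-of-ratios scaling 18 were lower. Of all 9057 genes, 52.5% were lower at 1 hour, with a median of -0.02. At 4 hours 22 of 22 were higher, beside 4076 of all 9057 genes, and 19 passed the limit, with a median of 2.15. The largest were *Ifit1* (5.67), *Cmpk2* (5.54), *Rsad2* (5.27) and *Ifit2* (4.39). The 3 that did not pass, picked out after their values were seen, were *Oas1a* (0.95), *Irf7* (0.40) and *Irf9* (0.23, 0.12 to 0.33). *Irf9*, the DNA-binding partner of STAT2 in ISGF3, thus had 30.5, 24.7 and 35.7 CPM while *Stat2* had 29.1, 24.0 and 256.

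Of 15 STAT3 targets at the minimum, 9 passed the limit upward and none downward at 4 hours, led by *Il4ra* (4.36), *Saa3* (4.02), *Timp1* (3.81) and *Socs3* (3.63), with a median of 1.58. Of 8 STAT5 targets, 4 passed it upward and none downward, *Cish* (3.87), *Ccnd2* (2.82), *Id1* (1.35) and *Bcl6* (1.28). Of 6 STAT6 targets, 1 passed it upward, *Socs1*, and 2 downward, *Klf4* (-2.18) and *Pparg* (-1.22), and the median was -0.06. Several of these genes also answer to other factors and stand in more than 1 list. *Ccnd2* and *Socs1* were under 5 CPM in Ctrl and LP1 and reached the minimum through LP4 alone. For all these lists the counts stand beside the 9.58% of genes upward and 10.2% downward at 4 hours.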

How the data were processed

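Ctrl, LP1 and LP4 are 1 single-cell RNA library each. The authors aligned the reads to the mouse mm10 transcriptome with Cell Ranger (version 7.1.0 in the submitters' processing notes) and deposited raw UMI counts for every gene in each called cell. Whether intronic reads were counted, and how strand was used, is not given in the sources used here.

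Following the limits of the study, a cell was kept if it had over 500 UMIs, over 500 genes and less than 5% of its UMIs from mitochondrial genes. The study reports fewer cells after its selection than the 15806 kept here, and the reason is not given. Counts of a library's kept cells were added up and expressed as CPM. Intervals, all at 95%, are exact Poisson for a level, exact binomial on the 2 counts for a ratio and Clopper-Pearson for a share. They cover counting error only. No p-value was computed, since no condition has a replicate. A gene was called when its log2 ratio reached 1 in either direction and its mean level over the 3 libraries 5 CPM. A gene low in Ctrl and LP1 can reach this mean through LP4 alone, so upward counts at 4 hours include such genes. The members and lists were chosen with earlier results of these data known. Named genes were the 9 members, the 3 genes most like each member, the 4 with the largest LP4 to Ctrl ratio in each list and any ligand, receptor or inhibitor. Positions are from GENCODE vM21 on GRCm38 and promoters from RefSeq on GRCm38.p6.

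Clusters were made from 2000 variable genes of 5264 that differed less than 1.5 times between libraries, after centring by library, with 30 principal components, 20 neighbours and the Leiden method (resolution 0.5). A cluster was named with 3 markers among its 10 leading genes or, failing that, with 3 macrophage markers in at least 50% of its cells. Doublets were not removed, and leaving out the 5% of cells with the highest Scrublet scores was an alternative. scanpy 1.11.5, leidenalg 0.10.2, pandas 2.3.3, scipy 1.17.1 and numpy 2.4.6 were run under Python 3.11.15, and edgeR 4.0.16 (TMM) and DESeq2 1.42.0 (median-of-ratios factors) under R 4.3.3. Ratios and thinning were tested on simulated data.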

Additional observations from a re-analysis of the deposited data

How the results depend on the processing

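No paired analysis was possible because each condition is 1 library. The direction of the LP4 to Ctrl ratio of every member was the same in all 9 alternatives of cell filter and scaling. The median of the 9 members, 1.22, moved to 1.39 with TMM and 1.42 with median-of-ratios scaling. *Tyk2* joined the members called, making 6 in place of 5, in 6 of the 9 alternatives, both scalings and 4 of the cell filters. These scalings shifted the median log2 ratio of all genes by 0.17 and 0.21 and changed the share of upward among all calls from 48.4% to 62.3% and 65.2%. The share of LP4 cells with a *Stat2* UMI was 22.6% at 1000, 39.2% at 2000 and 63.1% at 4000 UMIs per cell and 90.0% without thinning, so it is a value for a depth and not a share of cells expressing the gene. The *Stat2* ratio of the highest over the lowest interferon bin, 2.36 in Ctrl and 2.64 in LP1, was 1.86 and 1.91 in cells thinned to 2000 UMIs. The other 29 results for alternatives lay within the counting interval of the value reported, or within 1.5 times for counts, the lowest *Stat2* ratio over clusters at resolutions of 0.3 and 0.8 and the *Stat2* ratio over interferon bins in LP4 among them. For single members, 62 of 81 values did so, and the other 19 moved further without a change of sign. With 1 library per condition, differences between cultures, captures and sequencing runs cannot be told apart from those between treatments.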
